A study of Mus musculus with 10 samples.

Results

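The prostaglandin and leukotriene genes described here are 10 genes chosen by name: the phospholipase Pla2g4a, the cyclooxygenases Ptgs1 and Ptgs2, the prostaglandin E synthase Ptges, the prostaglandin dehydrogenase Hpgd, the prostaglandin E receptors Ptger2 and Ptger4, and the leukotriene genes Alox5, Alox5ap and Ltb4r1. A gene was represented by a probe annotated with that symbol alone. This gave 9 of the 10 genes, among 19938 genes with such a probe, and each of the 9 had 1 probe. Ptgs1 was not analysed here, so the inducible and the constitutive cyclooxygenase could not be set side by side.

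RNA of whole tumors grown under the skin from MC38 cells, a colon carcinoma line of the mouse, was measured on whole-transcript arrays. The 5 CpG1826 tumors came from C57BL/6 mice 50, 58, 183, 189 and 595 and had received, at about 40 mm2, an injection of 50 µg CpG1826 (volume 50 µL, in PBS), and were removed 6 h later. The 5 PBS tumors came from C57BL/6 mice 26, 29, 482, 592 and 661; the labels repeat the CpG1826 protocol for them, and the same size and time were assumed. CpG1826 is an unmethylated CpG oligodeoxynucleotide and an agonist of the endosomal DNA sensor TLR9. All mice carried the same transplanted line, no other genetic change is given, and each tumor was a mixture of tumor, immune, stromal and possibly skin cells. The question was which eicosanoid genes differed between injected tumors within hours. Values are log2 expression, the median of an array lay between 6.47 and 6.53, and precision is limited by having 5 arrays per group.

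Eicosanoids are signalling lipids made from arachidonic acid, which cytosolic phospholipase A2 releases from membranes. Cyclooxygenases turn it into prostaglandin H2, terminal synthases such as the PTGES enzyme turn that into prostaglandin E2, and the dehydrogenase HPGD inactivates the product. Prostaglandin E2 acts through EP receptors, of which EP2 and EP4 raise cyclic AMP, and it is known both to promote inflammation and to restrain immune cells in tumors. In leukocytes, 5-lipoxygenase (Alox5) with its membrane partner FLAP (Alox5ap) makes leukotriene A4, from which leukotriene B4, a ligand of the neutrophil receptor BLT1 (Ltb4r1), is formed.

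Of the 9 genes, those of arachidonic acid release and prostaglandin E2 synthesis (Pla2g4a, Ptgs2 and Ptges) were higher in CpG1826 tumors, the leukotriene partner Alox5ap was lower, and the dehydrogenase and the receptors did not pass the test. Of the 9 genes, 3 rose (Ptgs2, Ptges and Pla2g4a) and 1 fell (Alox5ap) in limma with Benjamini-Hochberg adjustment over all genes, at an adjusted p under 0.05. Over all 19938 genes 3.56% were called higher and 1.10% lower. The genes were named with earlier results of these data known, so no excess over these shares is claimed. For the same 4 genes the ranges of the CpG1826 and the PBS tumors were separate; this was seen for 6.78% of all genes, 4.35% with CpG1826 higher and 2.42% with CpG1826 lower. The median log2 difference, CpG1826 minus PBS, was -0.07 over the 9 genes and -0.02 over all genes. Those of the 9 that were called lay above the median level of all genes, and those not called lay below it. Whether level bears on the calls was not tested. More or fewer cells of a type and more or less RNA per cell cannot be told apart in whole tumors.

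The promoters of the 3 genes that rose together are shown because their sequences can be read beside the values that follow. They run from 250 bases before the annotated start to 30 bases from it on, 5′ to 3′, from RefSeq with the build GRCm38.p6, and capitals mark the letters of a searched motif.
Ptgs2 (chr1:150099781-150100060, + strand): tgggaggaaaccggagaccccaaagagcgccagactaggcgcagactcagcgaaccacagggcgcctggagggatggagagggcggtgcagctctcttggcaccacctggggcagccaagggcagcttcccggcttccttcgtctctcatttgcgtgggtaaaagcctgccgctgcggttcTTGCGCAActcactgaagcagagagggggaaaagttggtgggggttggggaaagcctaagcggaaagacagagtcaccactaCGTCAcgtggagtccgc
Ptges (chr2:30903268-30903547, - strand): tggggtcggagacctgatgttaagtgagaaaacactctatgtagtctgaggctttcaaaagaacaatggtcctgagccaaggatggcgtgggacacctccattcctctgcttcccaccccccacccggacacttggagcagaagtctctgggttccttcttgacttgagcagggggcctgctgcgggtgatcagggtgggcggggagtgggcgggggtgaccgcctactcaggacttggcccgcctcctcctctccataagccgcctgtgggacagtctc
Pla2g4a (chr1:149961261-149961540, - strand): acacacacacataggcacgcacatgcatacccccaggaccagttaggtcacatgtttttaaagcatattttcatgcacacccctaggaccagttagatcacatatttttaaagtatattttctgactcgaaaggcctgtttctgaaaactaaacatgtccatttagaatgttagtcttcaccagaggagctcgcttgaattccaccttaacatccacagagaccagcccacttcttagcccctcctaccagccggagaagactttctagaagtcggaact
The searches, on both strands, were for the NF-κB consensus, the AP-1 motif TGANTCA, the core TGACG of the cyclic AMP response element, the C/EBP motif TTGCNNAA and the TATA box TATAAA. None of the capitals overlap each other. The Ptgs2 promoter held 1 C/EBP match, 69 to 62 bases before the annotated start, and 1 TGACG match on the reverse strand, at bases 14 to 18 counted from that start as base 1. In 32851 RefSeq promoter windows of the same length, a C/EBP match was present in 10.4% and a TGACG match in 19.9%. The Ptges window and the Pla2g4a window shown held no match to any of the 5 motifs, and a second annotated Pla2g4a start had 1 TATA box match on the reverse strand, 200 to 195 bases before it. An NF-κB match was in 7.94% of all windows, an AP-1 match in 7.46% and a TATA box in 13.1%. These are matches of letters, not bound sites. Sequence outside the windows was not searched, and the annotated starts were not checked against the starts used in these tumors.

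Ptgs2, which encodes the inducible cyclooxygenase COX-2, differed most among the 9 genes. Its log2 values were 11.74, 11.05, 11.42, 11.29 and 11.31 in CpG1826 mice 50, 58, 183, 189 and 595, against 9.90, 10.27, 10.38, 10.22 and 10.16 in PBS mice 26, 29, 482, 592 and 661. The lowest CpG1826 tumor, mouse 58, lay above the highest PBS tumor, mouse 482, and mouse 50 was the highest of all. The means were 11.36 ± 0.25 in CpG1826 tumors and 10.19 ± 0.18 in PBS tumors (SD, n = 5 per group). Ptgs2 was 2.25-fold higher (95% confidence interval 1.89 to 2.69; log2 difference 1.17 ± 0.12 SE, limma adjusted p = 5.62e-05). It was the one gene of the 9 called when limma tested for more than a 1.5-fold change.

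Ptges, the microsomal prostaglandin E synthase that works downstream of COX-2, rose by a smaller amount with little spread. The log2 values were 10.79, 10.56, 10.74, 10.69 and 10.73 in CpG1826 mice 50, 58, 183, 189 and 595, against 10.26, 10.24, 10.33, 10.18 and 10.22 in PBS mice 26, 29, 482, 592 and 661. The groups were apart, and mouse 58 was the lowest CpG1826 tumor and mouse 50 the highest, as for Ptgs2. The group means were 10.70 ± 0.09 in CpG1826 tumors and 10.25 ± 0.06 in PBS tumors (SD, n = 5 per group), a 1.37-fold rise (95% confidence interval 1.25 to 1.51; limma adjusted p = 0.000721).

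Pla2g4a, the cytosolic phospholipase that supplies arachidonic acid to both branches, also rose. It measured 9.34, 9.33, 9.68, 9.63 and 9.58 on the log2 scale in CpG1826 mice 50, 58, 183, 189 and 595, and 8.80, 9.12, 9.03, 9.20 and 8.98 in PBS mice 26, 29, 482, 592 and 661. Mice 50 and 58 were the low CpG1826 tumors here and still exceeded every PBS tumor, so that mouse 50 was high for Ptgs2 and low for Pla2g4a within its group. The means were 9.51 ± 0.16 in CpG1826 tumors and 9.03 ± 0.15 in PBS tumors (SD, n = 5 per group), and the rise was 1.40-fold (95% confidence interval 1.22 to 1.61; limma adjusted p = 0.00794).

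**Figure D1:**
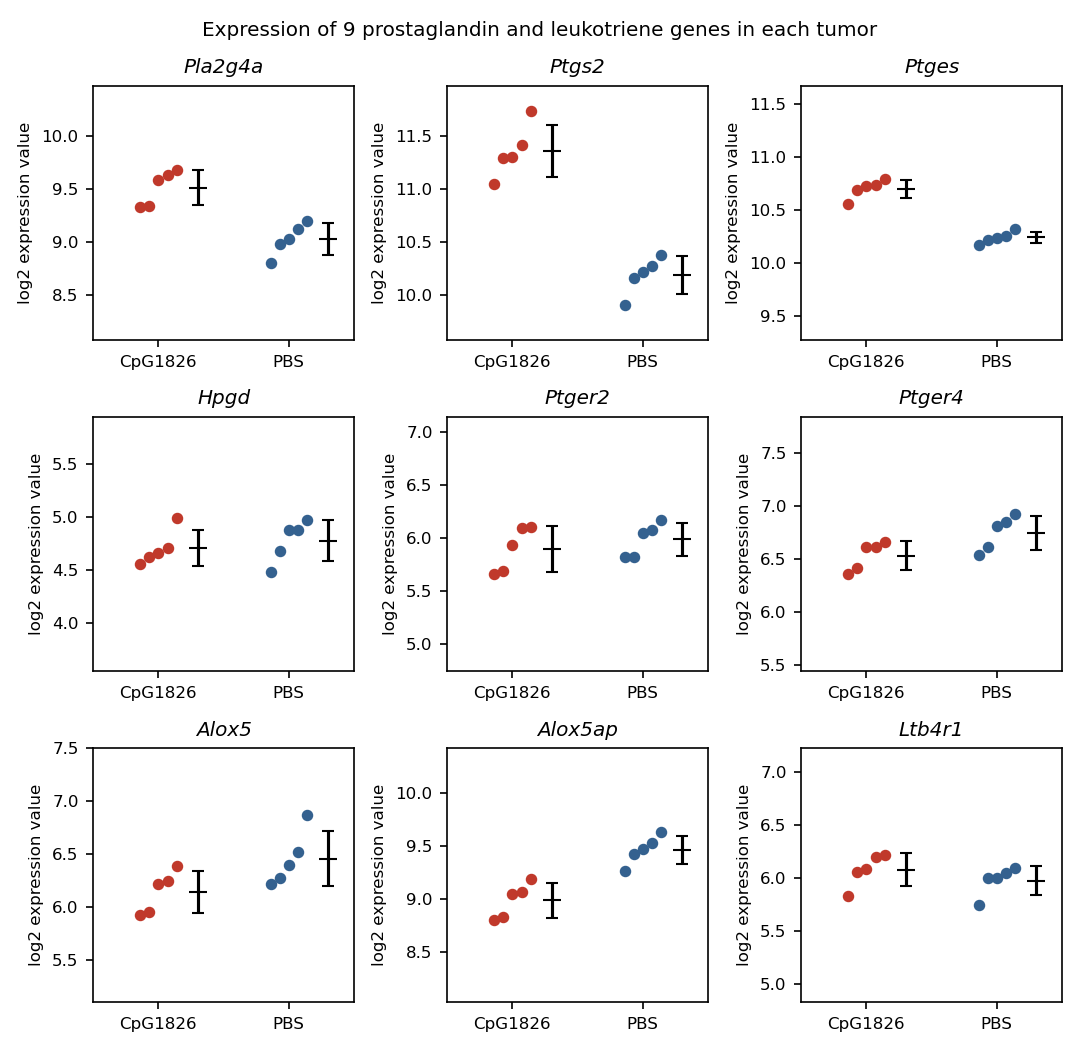
Log2 expression (y axis, each panel spanning the same range of log2 units) of the 9 genes in each CpG1826 tumor (red, left) and PBS tumor (blue, right), with points sorted by value and bars giving the mean and SD of 5 tumors. The groups are apart for Pla2g4a, Ptgs2 and Ptges (CpG1826 higher) and for Alox5ap (CpG1826 lower), and overlap in the other 5 panels.

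Hpgd, which oxidizes and inactivates prostaglandin E2, did not pass the test. Its values lay between 4.56 and 4.99 in CpG1826 tumors (median 4.66) and between 4.48 and 4.97 in PBS tumors (median 4.87), and the groups overlapped over nearly that whole range. The log2 difference was -0.07 ± 0.10 (SE; 95% confidence interval -0.29 to 0.16, limma adjusted p = 0.827). Its mean level was below the lower quartile of all genes on the arrays, a range in which changes can be compressed. Hpgd was the one gene of the 9 there, and Ptger2, Ptger4, Alox5 and Ltb4r1 lay between that quartile and the median level of all genes.

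The 2 receptors of prostaglandin E2 that couple to cyclic AMP did not pass the test either. Ptger4, which encodes EP4, measured 6.66, 6.35, 6.61, 6.41 and 6.61 in CpG1826 mice 50, 58, 183, 189 and 595, against 6.85, 6.61, 6.81, 6.92 and 6.54 in PBS mice 26, 29, 482, 592 and 661. PBS mice 29 and 661 lay within the CpG1826 range and the other PBS tumors above it. The log2 difference was -0.21 ± 0.09 (SE; 95% confidence interval -0.41 to -0.02), and the limma adjusted p was 0.267. Ptger2, which encodes EP2, ranged from 5.65 to 6.10 in CpG1826 tumors and from 5.81 to 6.17 in PBS tumors, with a log2 difference of -0.09 ± 0.11 (SE; 95% confidence interval -0.32 to 0.14, limma adjusted p = 0.763).

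Alox5ap, which encodes the FLAP protein that presents arachidonic acid to 5-lipoxygenase, was lower in CpG1826 tumors. The log2 values were 9.05, 8.80, 8.83, 9.06 and 9.19 in CpG1826 mice 50, 58, 183, 189 and 595, against 9.42, 9.63, 9.47, 9.53 and 9.26 in PBS mice 26, 29, 482, 592 and 661. The groups did not overlap, although CpG1826 mouse 595 and PBS mouse 661 came close to each other. The means were 8.99 ± 0.16 in CpG1826 tumors and 9.46 ± 0.14 in PBS tumors (SD, n = 5 per group). The log2 difference was -0.48 ± 0.09 (SE), or 1.39-fold lower (95% confidence interval 1.21 to 1.60, limma adjusted p = 0.00737).

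Alox5, the 5-lipoxygenase itself, had a difference of the same sign that did not pass. It measured 5.93, 6.22, 6.39, 5.95 and 6.25 in CpG1826 mice 50, 58, 183, 189 and 595, and 6.87, 6.40, 6.52, 6.28 and 6.22 in PBS mice 26, 29, 482, 592 and 661. PBS mouse 26 was the highest tumor, and PBS mice 592 and 661 lay within the CpG1826 range. The log2 difference was -0.31 ± 0.13 (SE; 95% confidence interval -0.58 to -0.04, limma adjusted p = 0.233). Ltb4r1, the high-affinity leukotriene B4 receptor of neutrophils and other leukocytes, lay between 5.83 and 6.22 in CpG1826 tumors and between 5.75 and 6.10 in PBS tumors. Its log2 difference was 0.10 ± 0.09 (SE; 95% confidence interval -0.09 to 0.29, limma adjusted p = 0.654).

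**Figure D2:**
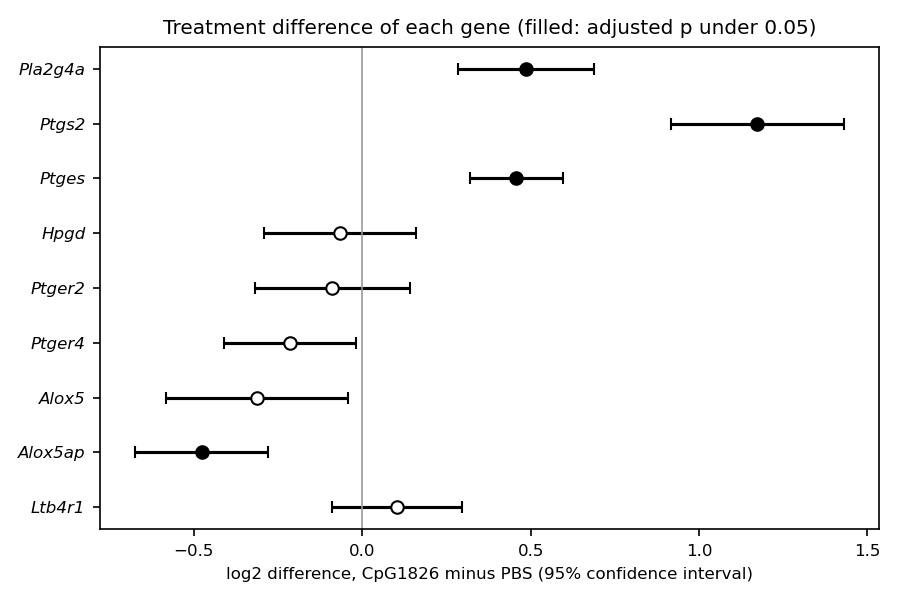
Log2 difference between CpG1826 and PBS tumors (x axis, CpG1826 minus PBS) with its 95% confidence interval for each gene, filled where the limma adjusted p was under 0.05. The interval of Ptgs2, 0.92 to 1.43, lies above those of the other 8 genes, and that of Alox5ap, -0.67 to -0.28, lies below 0. Those of Alox5, -0.58 to -0.04, and Ptger4, -0.41 to -0.02, also lie below 0, but neither gene passed the adjusted threshold.

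Differences between 2 genes within the same tumor compared how far the genes of a pair moved relative to each other; no receptor was paired with a gene of synthesis or degradation. Probes of different genes have no common scale, so only the shift of such a difference between groups is of use. An exact permutation test over the 252 groupings of the 10 tumors was run for 5 pairs (two-sided, Benjamini-Hochberg adjustment over the 5), and the smallest p it can give is 0.00794. The Ptgs2 minus Hpgd difference ran from 6.30 to 7.12 in CpG1826 tumors and from 4.94 to 5.80 in PBS tumors, 1.24 higher in CpG1826 tumors (exact permutation p = 0.00794, adjusted p = 0.0198), and every CpG1826 tumor exceeded every PBS tumor. The Ptges minus Hpgd difference was 6.00 ± 0.21 in CpG1826 tumors and 5.47 ± 0.18 in PBS tumors (SD, n = 5 per group; 0.52 higher, exact permutation p = 0.0159, adjusted p = 0.0265), with some overlap. Hpgd was dim and not shown to be above background, and these 2 shifts lie close to the differences of Ptgs2 and Ptges on their own (1.17 and 0.46), so they do not measure synthesis against degradation. The probe values of Ptgs2 and Ptges also shifted by unequal amounts. The Ptgs2 minus Ptges difference was 0.66 ± 0.17 in CpG1826 tumors and -0.06 ± 0.17 in PBS tumors (SD, n = 5 per group). It was 0.72 higher in CpG1826 tumors (exact permutation p = 0.00794, adjusted p = 0.0198). Whether the RNAs themselves changed unequally was not tested, because probes may differ in how they respond. In the receptor pair, Ptger4 minus Ptger2 was 0.64 ± 0.29 in CpG1826 tumors and 0.76 ± 0.16 in PBS tumors (SD, n = 5 per group), which the test did not separate (exact permutation p = 0.405, adjusted p = 0.405). Alox5ap minus Alox5 ran from 2.45 to 3.12 in CpG1826 tumors and from 2.55 to 3.25 in PBS tumors (exact permutation p = 0.357, adjusted p = 0.405), so a larger difference for Alox5ap than for Alox5 was not shown.

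**Figure D3:**
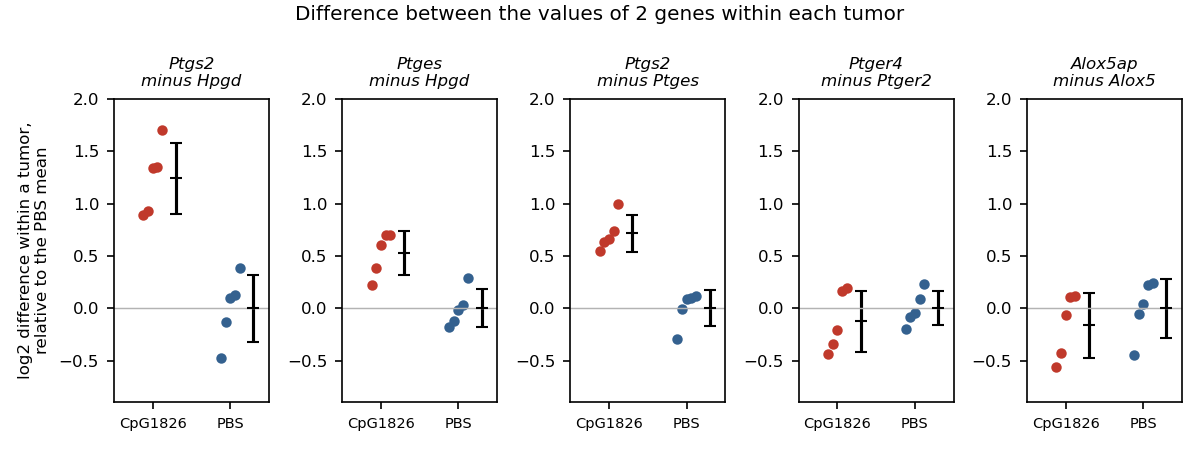
Difference between the log2 values of 2 genes within each tumor (y axis, relative to the mean of the PBS tumors), with CpG1826 tumors in red at the left and PBS tumors in blue at the right, and the mean and SD of 5 tumors as bars. Ptgs2 minus Hpgd and Ptgs2 minus Ptges are apart between the groups, by 1.24 and 0.72, and the groups overlap in the other 3 panels.

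Most of the wider pathway did not pass the test. Of 55 measured eicosanoid genes outside the 9, 2 rose and 0 fell in limma at an adjusted p under 0.05, and 3 were higher and 3 lower at an unadjusted p under 0.05. The shares called over all genes were 3.56% higher and 1.10% lower, as above. The median log2 difference of the 55 genes was -0.02, the same as over all genes to that precision. The other 6 listed genes, among them Ltb4r2 and Ggt1, were not analysed here.

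Slco3a1, an organic anion transporter that carries prostaglandins among other solutes, had the larger rise of those 2 genes. Its log2 values were 9.26, 9.49, 10.06, 9.60 and 9.63 in CpG1826 mice 50, 58, 183, 189 and 595, against 8.88, 8.76, 8.83, 8.83 and 8.40 in PBS mice 26, 29, 482, 592 and 661. The groups were apart, with mouse 183 highest and mouse 661 lowest, and the rise was 1.82-fold (95% confidence interval 1.49 to 2.22; limma adjusted p = 0.00156). Pla2g2f, a secreted phospholipase A2 found in epidermis, measured 6.03, 5.92, 5.68, 5.97 and 5.80 in CpG1826 mice 50, 58, 183, 189 and 595, and 5.46, 5.52, 5.55, 5.13 and 5.58 in PBS mice 26, 29, 482, 592 and 661. It was 1.35-fold higher (95% confidence interval 1.17 to 1.56; limma adjusted p = 0.0198), with CpG1826 mouse 183 close above PBS mouse 661. This call was lost without CpG1826 mouse 50 (limma adjusted p = 0.0538), and on leaving out each mouse in turn the limma adjusted p lay between 0.0161 and 0.0538.

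Within the classes of the list, 1 of 17 other phospholipases A2 rose and 0 of 6 other terminal prostanoid synthases passed in either direction. Ptges3, the cytosolic prostaglandin E synthase and HSP90 co-chaperone, had a log2 difference of -0.04 ± 0.07 (SE) on the probe with the highest mean of its 3. The 95% confidence interval, -0.19 to 0.11, lay below that of Ptges (0.32 to 0.59). Whether the 2 RNAs changed unequally was not tested, because probes may differ in how they respond. Of 6 genes of transport and degradation, Slco3a1 alone passed. None of the 7 other prostanoid receptors passed, and Tbxa2r, the thromboxane receptor, had a log2 difference of -0.13 ± 0.10 (SE).

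On the leukotriene side, 0 of 8 further genes of synthesis and breakdown and 0 of 3 further receptors passed. Lta4h, the hydrolase that makes leukotriene B4, had a log2 difference of 0.10 ± 0.10, and Cysltr1, a receptor of cysteinyl leukotrienes, one of -0.16 ± 0.10 (SE). Among 8 other lipoxygenases and epoxide hydrolases 0 passed, and Ephx1, the microsomal epoxide hydrolase, had a log2 difference of -0.18 ± 0.13 (SE).

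Outside the naming rule, and singled out after their values were seen, 4 of the 55 genes had an unadjusted p under 0.05 without passing the adjusted threshold. Pla2g7, which hydrolyses platelet-activating factor, had a log2 difference of 0.41 ± 0.14 (SE; limma adjusted p = 0.144). Tbxas1, the thromboxane synthase, had one of -0.35 ± 0.12 (SE; limma adjusted p = 0.127), Pla2g15, a lysosomal phospholipase, one of -0.27 ± 0.08 (limma adjusted p = 0.106) and Ptgr2, a prostaglandin reductase, one of -0.25 ± 0.11 (limma adjusted p = 0.315).

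**Figure D4:**
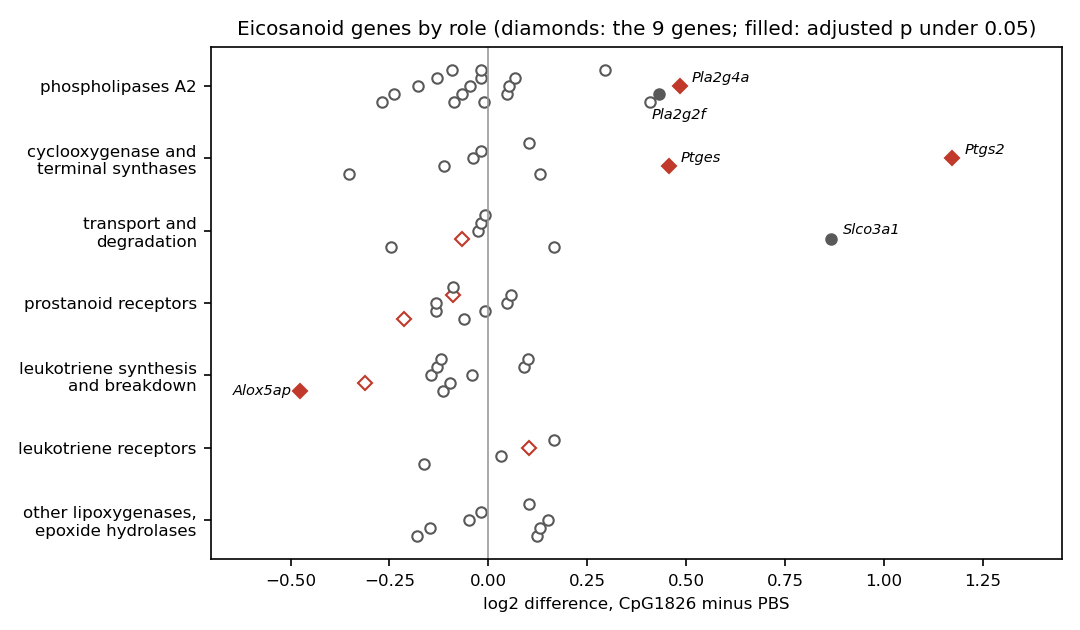
Log2 difference between CpG1826 and PBS tumors (x axis) of 64 eicosanoid genes in 7 role classes (y axis; vertical offsets within a class carry no meaning), with diamonds for the 9 genes described in full, circles for the 55 others, and filled symbols where the limma adjusted p was under 0.05. The 6 filled symbols are Pla2g4a, Pla2g2f, Ptgs2, Ptges and Slco3a1 on the positive side and Alox5ap on the negative side.

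Markers of several cell types differed between the groups as well, and their part in the changes above was not tested. Keratinocyte markers were higher in the same tumors as Ptgs2, Ptges, Pla2g4a and Pla2g2f, and whether these rises are linked was not tested. The shares to set beside the marker counts are those over all genes, 3.56% called higher and 1.10% lower. Keratinocyte markers rose in 13 of 17 genes and fell in 0, and their log2 values summed to 119 to 132 in CpG1826 tumors and to 95.9 to 104 in PBS tumors; Krt1 was 8.35-fold higher (limma adjusted p = 4.74e-05), and Sfn, with the highest mean, did not pass (0.32 ± 0.11 SE). Neutrophil markers, of interest because neutrophils carry Alox5, Alox5ap and Ltb4r1, rose in 6 of 13 genes and fell in 0, with sums of 77.9 to 82.2 in CpG1826 tumors and 71.0 to 73.9 in PBS tumors. S100a8 was 4.37-fold higher (limma adjusted p = 8.67e-05). Mmp9, Ly6g, Camp, Ltf, Ngp, Mpo and Elane did not pass, and 6 of the 13 were below the lower quartile of all levels. Whether S100a8 and the other called neutrophil markers came from neutrophils or from other cells, such as keratinocytes, was not tested. Monocyte and macrophage markers, of cells that also carry Alox5ap and Ptgs2, fell in 3 of 11 genes and rose in 1. Their sums were 99.8 to 105 in CpG1826 tumors and 102 to 107 in PBS tumors, Cx3cr1 was 2.32-fold lower (limma adjusted p = 6.53e-05), Csf1r and Ccr2 also fell, Fcgr1 rose, and Lyz2 had a log2 difference of -0.09 ± 0.11 (SE).

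Among mast cell and basophil markers 1 of 11 rose, Hdc, the histamine-forming enzyme (3.06-fold, limma adjusted p = 1.73e-05). The other 10 did not pass, among them the mast cell tryptase Tpsb2 (0.14 ± 0.17 SE). A single called gene, here and in the platelet and endothelial lists, does not show a change of the cell type. Itgb3 rose among 7 platelet markers (1.33-fold, limma adjusted p = 0.0122), and Tek fell among 8 endothelial markers (1.27-fold lower, limma adjusted p = 0.0488), of which Pecam1, with the highest mean, had a log2 difference of 0.37 ± 0.12 (SE; limma adjusted p = 0.122). None of 9 fibroblast, 7 T cell and 4 B cell markers passed, and their genes with the highest mean had log2 differences of 0.09 ± 0.08 (Dcn), -0.51 ± 0.25 (Cd3g) and -0.23 ± 0.11 (Cd79b, SE). Of 7 markers of epithelial tumor cells, Cdh1 (1.55-fold, limma adjusted p = 0.0102) and Epcam (0.32 ± 0.09 SE, limma adjusted p = 0.0485) rose. Epcam lay below the median level of all genes, and its groups overlapped. The other 5 did not pass, and 2 of them (Krt19 and Krt20) were below the lower quartile of all levels. None of these markers is specific to MC38, so they do not check the tumor label. Whether the rises of Cdh1 and Epcam came from tumor cells or from other epithelium, such as keratinocytes, was not tested.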

How the data were processed

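The 10 arrays, 5 CpG1826 and 5 PBS, were grouped by their titles, whose last number is the mouse. The deposited table gives 1 log2 value per probe and array; that the base is 2 was inferred from the range (2.03 to 14.7). The array medians are similar but not equal, so the authors may have normalized between arrays, which could conceal a change common to most genes; this was not tested. R 2.7.1 and limma are named, without their use, in the submitters' processing notes; the sources used here do not give the background correction or the probe summarization.

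Of 35512 probes, 21789 have exactly 1 gene symbol in the platform annotation, 1621 several and 12102 none. The probe with the highest mean stood for each of 19938 genes, 999 of which had several. Each gene was tested with limma 3.58.1 in R 4.3.3 (lmFit, eBayes, two-sided, Benjamini-Hochberg over all genes, threshold 0.05). The planned Ptgs2 minus Ptgs1 pair could not be run.

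The genes and lists were chosen with earlier results of these data known. Named were the 9 measured genes, called pathway genes, the gene with the highest mean in a class with none called, and each marker list's gene with the highest mean and its called gene of largest change; other markers named were chosen after their values were seen. Mice are taken as separate animals. No batch or scan date was used. Promoters were from RefSeq, and 9 of the 10 symbols matched. The fit was tested on simulated arrays (19938 genes, 5 arrays in each group): of 100 genes given a change of 0.5 on the log2 scale 68 were called, of 100 given a change of 1 all 100 were called, and 5 unchanged genes were called too. The alternatives comprised quantile normalization on top of the authors' own, median centring, 2 filters on level, another prior, array weights, other probe rules, an adjusted p under 0.01, limma treat with a 1.5-fold minimum, and leaving out each mouse.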

Additional observations from a re-analysis of the deposited data

Results flagged for a closer look

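Ltb4r1 in PBS mouse 26 was 5.75, far below the nearest other PBS tumor at 6.00, and Pla2g2f in PBS mouse 592 was 5.13, with the nearest at 5.46. Slco3a1 in PBS mouse 661 was 8.40, with the nearest at 8.76. Each gap exceeded Dixon's 95% critical value for its group of 5, in 3 of 22 groups of tumors tested, where chance flags about 1 in 20. Without these mice the log2 differences of Ltb4r1, Pla2g2f and Slco3a1 were 0.04, 0.35 and 0.78, each on the same side of the test's threshold as with them.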

How the results depend on the processing

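The 3 higher genes (Ptgs2, Ptges and Pla2g4a) and the 1 lower gene (Alox5ap) kept their calls under every alternative except limma treat with a 1.5-fold minimum. That setting asks for a larger change and called 1 higher gene (Ptgs2) and 0 lower genes. The other probe rules left the values of these genes unchanged, because each had 1 probe, and could alter only the prior and the adjustment. Leaving out each mouse gave 3 to 3 higher and 1 to 1 lower, with log2 differences of 1.08 to 1.25 for Ptgs2, 0.43 to 0.49 for Ptges, 0.43 to 0.53 for Pla2g4a and -0.53 to -0.43 for Alox5ap. Of the 55 other pathway genes, 2 were higher; the count was 1 with genes below the median level left out, a filter that removes Pla2g2f, 1 at an adjusted p under 0.01, 0 with treat and 1 to 2 on leaving out each mouse (1 without CpG1826 mouse 50). The count of lower pathway genes, 0, was 1 after quantile normalization and 1 with genes below the median level left out (Pla2g15 in both), and 0 to 1 on leaving out each mouse (1 without PBS mouse 661, Tbxas1); the cause was not tested. The 5 gene pairs were recomputed only after quantile normalization, with the mean of a gene's probes and without each mouse. The mean of a gene's probes could not change them, because each gene had 1 probe. In the other settings the pairs kept their calls at an adjusted p under 0.05 (none would pass 0.01). The ranges on leaving out each mouse were 1.12 to 1.34 for Ptgs2 minus Hpgd, 0.48 to 0.60 for Ptges minus Hpgd and 0.64 to 0.76 for Ptgs2 minus Ptges.

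Over all genes, 471 were called at an adjusted p under 0.01 (407 higher and 64 lower) and 82 with treat (80 higher and 2 lower), against 930 (710 and 220). The lower count was 364 after quantile normalization and 338 with genes below the median level left out. Leaving out each mouse gave 702 to 827 in all, 558 to 667 higher and 121 to 209 lower: 135 without CpG1826 mouse 50, 142 without 183, and 144, 121 and 137 without PBS mice 29, 482 and 592. The median difference over all genes stayed between -0.04 and -0.01. No paired analysis was possible because no mouse number occurs in both groups. Signal over background was not used, so dim genes such as Hpgd may hide a change.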
